A study of Mus musculus with 2 samples.

Results

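The genes described here drive and carry out cell division: 54 cell cycle and mitosis genes, chosen by symbol, among 18193 genes that probe sets of the array name singly. They were followed in 2 pools of newborn mouse cerebral cortex, in the order of their roles: 11 genes of G1 and S phase entry, 13 of DNA replication and 30 of mitosis. The double knockout pool is labelled MRTF-A-/-;MRTF-BF/F;GFAP-Cre, so by label it lacks MRTF-A throughout and loses MRTF-B where a GFAP-driven Cre recombinase has been active. The control pool is labelled MRTFA-/-;MRTF-BFlox/Flox, so by label its animals are also null for MRTF-A but carry no Cre. MRTF-A and MRTF-B are actin-sensitive coactivators of the transcription factor SRF. Both pools are labelled postnatal day 0, except that 1 description of the double knockout sample gives day 1. Each pool combined cortical RNA of 3 mice and was read on 1 Affymetrix array, so no difference below has a replicate check and no p-value is given. The labels do not name the GFAP-Cre line, and Cre by a GFAP promoter would leave cells outside that lineage with intact Mrtfb.

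A dividing cell passes from G1 into S phase when D and E cyclins with their kinases switch on E2F-dependent genes, copies its DNA after MCM helicases have been loaded at origins, and then enters mitosis under Cdk1 with A and B cyclins. Inhibitors of the Cip/Kip and Ink4 families hold cells in G1, and the anaphase-promoting complex ends mitosis by destroying cyclin B and securin. In the newborn cortex most neurons have left the cycle, while progenitors along the ventricle, glial precursors, vessels and microglia still divide.

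The labels were checked first. Mrtfb, encoding MRTF-B, had a signal of 2481.8 in the double knockout pool, against 3358.9 in the control pool, 1.36-fold lower. Mrtfa, encoding MRTF-A, had 262.4 in the double knockout pool, against 601.6 in the control pool, 2.30-fold lower, although both pools are labelled null for it and the control signal is above the floor used below. The positions of these probe sets relative to the deleted parts were not analysed here. Cortical identity was checked with projection neuron markers. All 8 of them that the array names singly reached the floor in both pools, among them the cortical factors Tbr1 (1720.3 in the double knockout pool and 1553.3 in the control pool) and Emx1 (391.7 in the double knockout pool and 346.9 in the control pool), whereas Atoh1, a marker of cerebellar granule precursors, lay under the floor in both. Markers of neighbouring regions were read too: Zic1 had 1219.5 in the double knockout pool and 1372.7 in the control pool, Hoxa5 had 283.4 and 246.9 in the same order, and the striatal neuropeptide gene Penk had 2234.1 in the double knockout pool and 2928.0 in the control pool.

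The division genes did not shift in 1 direction between the pools. A signal floor of 178.9, the median of all signals outside the array's own controls, was used, because dim signals vary most. Of the 54 genes, 42 reached that floor in both pools, 4 in a single pool, 7 in neither, and Ccnb1 had no probe set naming it alone. Of the 42, 25 were lower and 17 higher in the double knockout pool than in the control pool, where 45.7% of all 11014 genes that reached the floor in both pools were lower. The median log2 difference, double knockout minus control, was -0.09 over the 42 genes and 0.02 over the 11014. Past 1.3-fold, 6 of the 42 were lower and 1 was higher, while 3.29% of all genes were lower and 2.02% higher by that much. Past 1.5-fold, 2 of the 42 were lower and 1 was higher, against 0.672% and 0.336% of all genes. After quantile normalization of the arrays the 1.3-fold split of the division genes was 4 lower and 2 higher, against 6 and 1, and that of all genes was 295 lower and 278 higher, against 362 and 222. With a pseudocount equal to the floor, 1 of the 42 was lower and 1 higher by 1.3-fold, against 1.04% and 0.654% of all genes. With the floor at the 25th percentile, 5 of 48 division genes were lower and 2 higher by 1.3-fold, against 7.70% and 3.91% of all genes. With no floor, 9 of 53 (17.0%) were lower and 4 (7.55%) higher, against 16.6% and 6.92% of all genes. Most of the division genes are dim on these arrays: 37 of the 42 belong to the dimmer 5507 of the measured genes, of which 54.2% were lower, 5.54% were past 1.3-fold lower and 3.09% past 1.3-fold higher. Past 1.5-fold, 1.18% of these dimmer genes were lower and 0.472% higher, and their median difference was -0.02. The SD of the differences was 0.27 log2 over the 42 genes, 0.22 over the 5507 dimmer genes and 0.19 over all measured genes. In whole tissue, fewer dividing cells and less RNA per cell cannot be told apart.

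**Figure D1:**
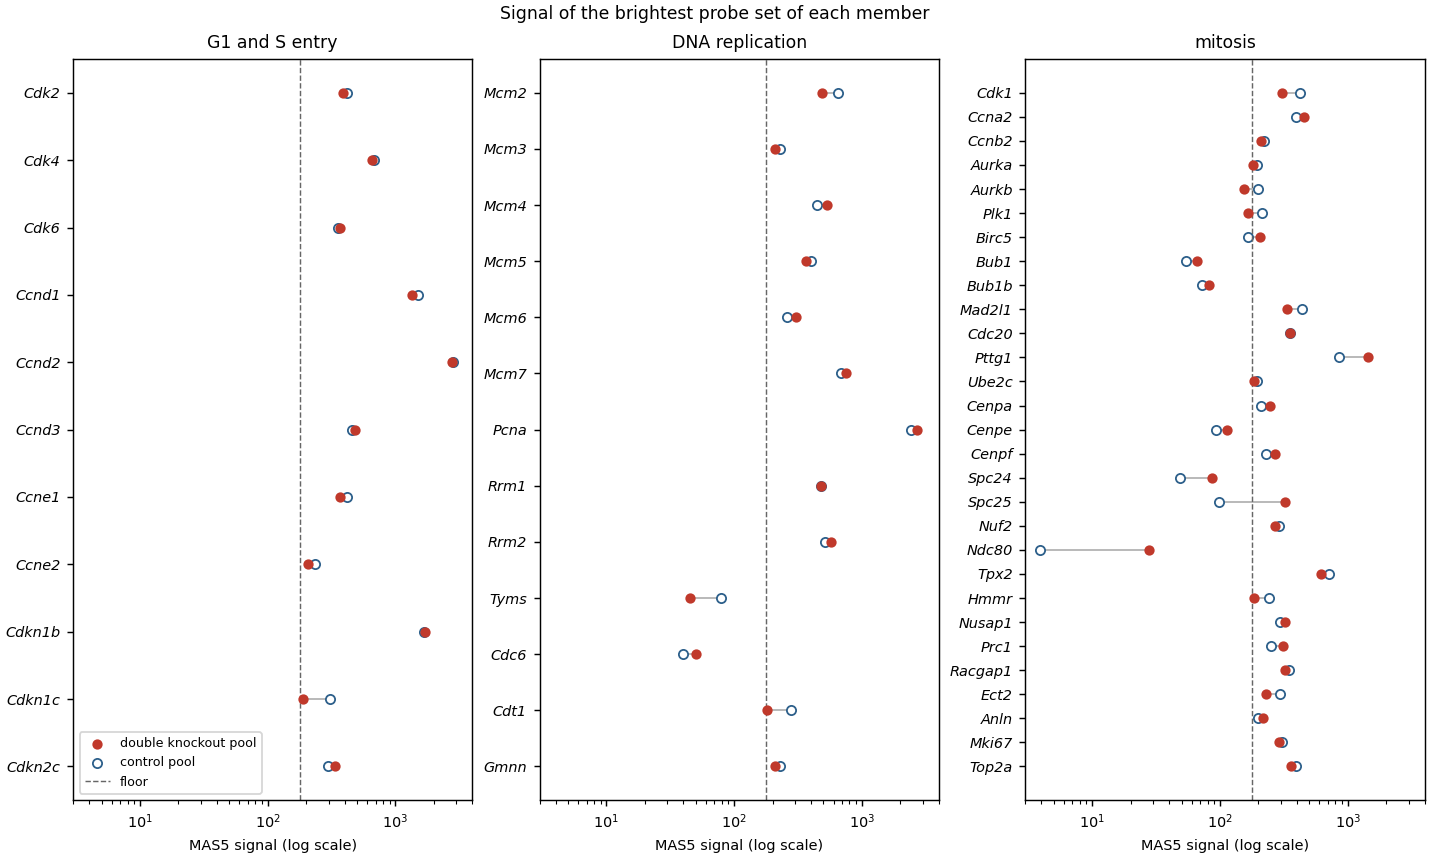
MAS5 signal (log scale) of the brightest probe set of each division gene in the double knockout pool (filled red) and in the control pool (open blue), with the floor of 178.9 as a dashed line. Most pairs of points nearly coincide, and the widest gaps above the floor are those of Pttg1, Cdkn1c and Cdt1.

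**Figure D2:**
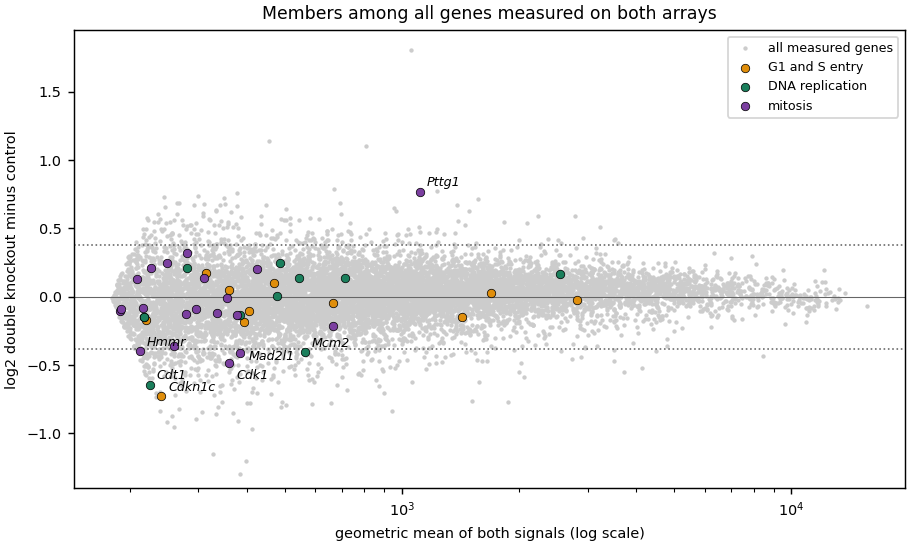
Log2 difference, double knockout minus control, against the geometric mean of both signals for all 11014 measured genes (grey) and the 42 division genes (coloured by role), with dotted lines at 1.3-fold. Of the 42, 6 lie below the lower line and Pttg1 alone lies above the upper line, and the grey cloud widens toward low signals.

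The promoters of replication and mitosis genes differed in the short sequence words they hold, and 6 of them are shown because their genes include both directions of difference and examples of each kind of word. E2F factors bind near the starts of S phase genes, and the MuvB complex binds the CHR element of late cell cycle genes, often beside NF-Y sites. RefSeq promoters on assembly GRCm38.p6, running from 250 bases before to 50 bases after a gene's start, were tabulated for 44 of the 54 genes. They were searched on both strands for 4 E2F words (TTGGCGC, along with TTCGCGC, also TTCCCGC, and finally TTGCCGC), for the CHR words TTTGAA or its variant TTTAAA, and for the NF-Y word CCAAT. E2F words can overlap one another, and an E2F word can share bases with an NF-Y word. The 150 bases before each start are printed 5′ to 3′, with capitals marking the words found.
Mcm6 promoter, chr1:128359706-128359855, minus strand: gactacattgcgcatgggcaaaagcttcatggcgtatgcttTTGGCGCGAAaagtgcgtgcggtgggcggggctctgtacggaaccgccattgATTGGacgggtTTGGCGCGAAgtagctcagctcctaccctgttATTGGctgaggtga
Mcm2 promoter, chr6:88898781-88898930, minus strand: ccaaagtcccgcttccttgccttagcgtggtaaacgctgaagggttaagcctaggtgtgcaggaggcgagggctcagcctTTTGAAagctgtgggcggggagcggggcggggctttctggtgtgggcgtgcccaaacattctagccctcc
Cdk1 promoter, chr10:69352913-69353062, minus strand: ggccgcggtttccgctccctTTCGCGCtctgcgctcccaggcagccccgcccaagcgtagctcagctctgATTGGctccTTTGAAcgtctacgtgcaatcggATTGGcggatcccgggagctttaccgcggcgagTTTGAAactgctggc
Ccnb2 promoter, chr9:70421555-70421704, minus strand: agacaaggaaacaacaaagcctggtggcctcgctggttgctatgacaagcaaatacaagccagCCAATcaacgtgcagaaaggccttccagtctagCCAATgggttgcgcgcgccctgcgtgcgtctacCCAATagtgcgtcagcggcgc
Hmmr promoter, chr11:40733438-40733587, minus strand: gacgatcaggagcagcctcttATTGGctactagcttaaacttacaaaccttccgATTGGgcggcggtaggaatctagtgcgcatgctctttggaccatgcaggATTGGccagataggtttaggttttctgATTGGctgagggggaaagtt
Pttg1 promoter, chr11:43425982-43426131, minus strand: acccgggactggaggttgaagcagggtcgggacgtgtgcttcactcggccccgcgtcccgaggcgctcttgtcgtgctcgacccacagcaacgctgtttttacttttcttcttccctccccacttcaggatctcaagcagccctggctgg

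In the Mcm6 stretch the capitals form 2 runs, each of E2F words that overlap on opposite strands, and 2 inverted NF-Y words. In the Cdk1 stretch an E2F word precedes 2 CHR words, at -71 and -15 from the start, and 2 NF-Y words. The Ccnb2 stretch holds 3 NF-Y words and the Hmmr stretch holds 4, and their CHR words lie outside the printed bases. In the Mcm2 stretch the single capital run is a CHR word, and none of the words searched was in the Pttg1 stretch, which describes these letters in this window only.

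E2F words were in 8 of 11 replication promoters (72.7%), in 5 of 26 mitosis promoters (19.2%) and in 2 of 7 G1 and S entry promoters, against 19.7% of 8923 promoters of genes that reached the floor in both pools and 10.9% of all 27025 tabulated genes. CHR words were in 21 of 26 mitosis promoters (80.8%), in 3 of 11 replication promoters and in 2 of 7 G1 and S entry promoters, against 21.6% of the measured genes and 30.6% of the tabulated ones. The NF-Y word was in 19 of 26 mitosis promoters and 8 of 11 replication promoters, against 42.8% of the measured genes. Promoters with both an NF-Y and a CHR word made up 18 of the 26 mitosis promoters (69.2%) and 8.58% of the measured genes. Of the division genes measured in both pools, the 19 with a CHR word had a median difference of -0.09 with 13 lower, and the 15 without one had a median of 0.05 with 6 lower. Over all measured genes the medians were 0.02 with a CHR word and 0.02 without, and 44.4% and 45.5% were lower. Most division genes belong to the dimmer 5507 genes, of which 54.2% were lower, with a median of -0.02. The 13 division genes with an E2F word had a median difference of -0.10 and the 21 without one -0.01, against 0.01 and 0.02 over all measured genes. The 25 division genes with the NF-Y word had a median of -0.08 and the 9 without it -0.04, against 0.01 and 0.02 over all measured genes. The splits by word were not recomputed under other processing, and a link between words and differences was not tested.

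**Figure D3:**
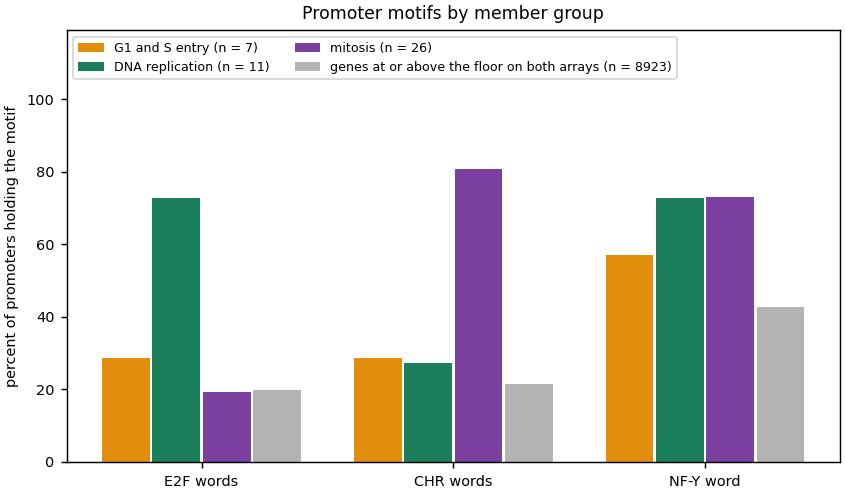
Percent of promoters holding at least 1 E2F, CHR or NF-Y word, for the G1 and S entry, replication and mitosis genes and for the 8923 measured genes with a tabulated promoter. E2F words stand out in the replication genes (72.7%) and CHR words in the mitosis genes (80.8%), against 19.7% and 21.6% of the measured genes.

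Of the genes of G1 and S phase entry, the inhibitor Cdkn1c alone was past 1.3-fold on its brightest probe set, and Ccne1 was past it on a dimmer one. All 11 reached the floor in both pools. In the double knockout pool 7 were lower and 4 higher, and the median was -0.04, where 45.7% of all measured genes were lower and 3.29% past 1.3-fold lower. Cdkn1c, encoding the Cip/Kip inhibitor p57, which restrains progenitor division and is expressed from the maternal allele, had a signal of 187.7 in the double knockout pool, against 309.9 in the control pool. That is 1.66-fold lower on its only probe set, a log2 difference of -0.73, and 0.245% of all measured genes were lower still. The double knockout signal lies just above the floor, and the difference was -0.42 with a pseudocount equal to the floor. The other inhibitors differed by less than 1.3-fold. Cdkn1b, encoding p27, had 1708.2 in the double knockout pool and 1670.4 in the control pool, a difference of 0.03, and Cdkn2c, encoding the Ink4 inhibitor p18, had 334.6 in the double knockout pool and 295.9 in the control pool, a difference of 0.17.

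The D cyclins, which couple growth signals to Cdk4 and Cdk6, differed little. Ccnd1 had 1355.7 in the double knockout pool, against 1501.8 in the control pool, and its 2 probe sets above the floor averaged -0.19 ± 0.06 (SD between probe sets). Ccnd2, which is prominent in cortical progenitors, had 2793.2 in the double knockout pool and 2838.4 in the control pool. Its 5 probe sets were of both signs and averaged 0.05 ± 0.08 (SD). Ccnd3 differed by 0.10. Both E cyclins, the partners of Cdk2 at S phase entry, were lower in the double knockout pool. Ccne1 had 368.8 in the double knockout pool, against 417.4 in the control pool, on its brightest probe set, and 198.0 against 269.5 on the other, a mean of -0.32 ± 0.19 (SD, 2 probe sets). The dimmer one, the only Ccne1 probe set without a suffix, differed by -0.45. Ccne2 differed by -0.17 on its only probe set. The kinases themselves were close in both pools, with Cdk2 at -0.10, Cdk4 at -0.04 and Cdk6 at 0.05. The probe sets of Cdk4 and of Cdk6 went both ways, with means of 0.01 ± 0.07 (SD, 3 probe sets) and -0.03 ± 0.11 (SD, 2 probe sets).

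Replication genes had a median of 0.01, with 5 lower and 6 higher of the 11 that reached the floor in both pools, where 45.7% of all measured genes were lower. Cdt1 and Mcm2 were the lowest of them. Cdt1, the factor that loads MCM helicases at origins, had 180.5 in the double knockout pool, against 281.1 in the control pool, 1.56-fold lower and barely above the floor, a log2 difference of -0.64 that became -0.36 with the pseudocount and so was no longer past 1.3-fold. A dimmer Cdt1 probe set, under the floor in both pools, read 111.3 in the double knockout pool and 138.0 in the control pool. Geminin, encoded by Gmnn, which binds Cdt1 and blocks a further round of loading, differed by -0.15. Cdc6, the partner of Cdt1 in loading, stayed under the floor, at 50.5 in the double knockout pool and 39.6 in the control pool.

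The 6 subunits of the MCM2-7 helicase, which act as 1 ring, did not shift as a unit. Mcm2 had 489.9 in the double knockout pool, against 646.9 in the control pool, 1.32-fold lower, and its other probe set had 190.3 in the double knockout pool, against 244.8. The mean over both was -0.39 ± 0.03 (SD). Mcm3 and Mcm5 differed by -0.14 and -0.13. Mcm6 had 303.1 in the double knockout pool, against 261.3 in the control pool, higher on both probe sets above the floor with a mean of 0.22 ± 0.01 (SD). Mcm7 had 4 probe sets in both directions, with 0.14 on the brightest and a mean of 0.02 ± 0.10 (SD). The probe sets of Mcm4 opposed each other, with 530.7 in the double knockout pool and 445.4 in the control pool on 1, and 394.7 in the double knockout pool and 493.0 in the control pool on the other, so that their mean was -0.04 ± 0.41 (SD) and Mcm4 has no settled direction.

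The other replication genes that reached the floor in both pools were higher by small amounts on their brightest probe sets. Pcna, the sliding clamp of the replicative polymerases, had 2711.0 in the double knockout pool, against 2405.0 in the control pool, a difference of 0.17 on its only probe set. Rrm1 and Rrm2 encode the subunits of ribonucleotide reductase, which makes deoxynucleotides. On the brightest probe set Rrm1 differed by 0.01 and Rrm2 by 0.14. Rrm1 averaged 0.14 ± 0.18 (SD, 2 probe sets) and Rrm2 0.20 ± 0.28 (SD, 3 probe sets), and 1 of the Rrm2 probe sets was lower. Tyms, thymidylate synthase, stayed under the floor on all 4 of its own probe sets, the brightest at 45.5 in the double knockout pool and 78.3 in the control pool.

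Mitosis genes had a median of -0.09, with 13 lower and 7 higher of the 20 that reached the floor in both pools. That direction was not stable, since the median was 0.0027 after quantile normalization. It was 0.26 when the floor was raised to the 75th percentile, which left only Tpx2 at -0.23 and Pttg1 at 0.75. At the floor used here, 3 of the 20 were past 1.3-fold lower and 1 was past it higher. Of all measured genes 45.7% were lower, 3.29% past 1.3-fold lower and 2.02% past 1.3-fold higher. For the dimmer 5507 genes these shares were 54.2%, 5.54% and 3.09%. The master kinase Cdk1 had 304.5 in the double knockout pool, against 424.9 in the control pool, 1.40-fold lower on its only probe set, and 1.48% of all measured genes were lower still. The 2 cyclin partners measured were not lower to that extent, and no probe set named Ccnb1 alone. Ccna2 had 457.1 in the double knockout pool, against 395.7 in the control pool, with a mean of 0.14 ± 0.09 (SD, 2 probe sets), and Ccnb2 had 210.8 in the double knockout pool, against 222.6 in the control pool, a difference of -0.08. Aurka, the centrosomal Aurora kinase, differed by -0.11. Plk1 and Aurkb reached the floor in the control pool alone, at 164.7 and 152.9 in the double knockout pool, against 213.6 and 198.5 in the control pool, which gives bounds of at least 1.20-fold and at least 1.11-fold lower. Birc5, survivin, the partner of Aurkb in the chromosomal passenger complex, went the opposite way, at 205.9 in the double knockout pool, against 165.1 in the control pool, at least 1.15-fold higher. A gene that reaches the floor in a single pool differs by construction, so these bounds enter no count.

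At the spindle checkpoint and anaphase, the members past 1.3-fold went in both directions. Mad2l1, which holds back anaphase until all chromosomes are attached, had 332.6 in the double knockout pool, against 441.4 in the control pool, 1.33-fold lower on its only probe set. Bub1 and Bub1b, its partners in the checkpoint, stayed under the floor, at 66.0 and 81.5 in the double knockout pool, against 54.4 and 72.6 in the control pool. Pttg1, securin, the inhibitor of separase that is destroyed at anaphase, was the highest of all 42. Its brightest probe set read 1452.9 in the double knockout pool, against 850.3 in the control pool, 1.70-fold higher, and 99.9% of all measured genes had a lower difference. A further probe set read 412.3 in the double knockout pool, against 296.2, and the mean over both was 0.62 ± 0.21 (SD). The third, under the floor in both pools, went the other way, at 132.6 in the double knockout pool and 149.4 in the control pool. Both bright Pttg1 probe sets carry suffixes for probes that can match more than 1 transcript. Cdc20 and Ube2c, an activator and the E2 enzyme of the anaphase-promoting complex that destroys securin, differed by -0.01 and -0.09.

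**Figure D4:**
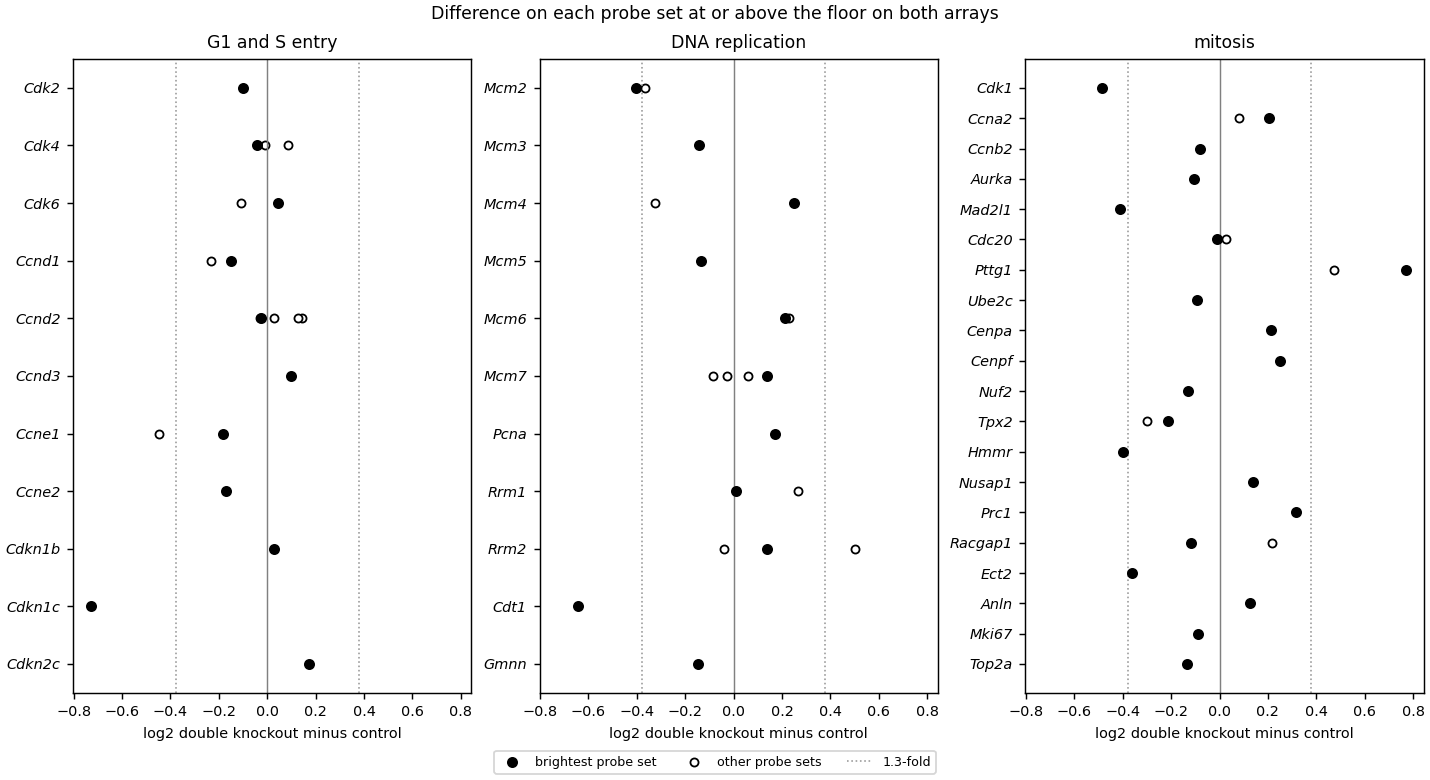
Log2 difference, double knockout minus control, of every probe set that reached the floor in both pools, for the brightest probe set of each gene (filled) and the others (open), with dotted lines at 1.3-fold. Probe sets of Mcm2, Mcm6 and Tpx2 lie close together, while those of Mcm4 fall on opposite sides of 0.

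Centromere and kinetochore genes were mostly too dim to compare. Of 7, 3 reached the floor in both pools, with Cenpf at 0.25, Cenpa, the centromeric histone, at 0.21 and Nuf2 at -0.13. Further probe sets of Cenpa, under the floor in both pools, read lower in the double knockout pool, and those of Cenpf went both ways. The 4 subunits of the NDC80 complex, the microtubule anchor of the kinetochore, were read unequally. Spc25 had 322.7 in the double knockout pool, against 98.5 in the control pool, at least 1.80-fold higher, but its other probe set read 113.0 in the double knockout pool and 123.0 in the control pool, both under the floor. Nuf2 was described above, and Spc24 and Ndc80 stayed under the floor, at 86.5 and 27.6 in the double knockout pool, against 48.9 and 3.9 in the control pool. Cenpe, a kinetochore motor, was also under the floor, at 114.1 in the double knockout pool and 92.8 in the control pool.

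Spindle and cytokinesis genes went both ways. Hmmr, a spindle assembly protein, had 185.1 in the double knockout pool, against 243.4 in the control pool, 1.32-fold lower on its only probe set above the floor in both pools, a log2 difference of -0.40 that became -0.22 with the pseudocount. Its 4 other probe sets went both ways, and 1 of them read 199.6 in the double knockout pool and 140.9 in the control pool. Tpx2, the activator of Aurora A on spindle microtubules, was lower on both probe sets above the floor, with 618.8 in the double knockout pool, against 714.5 in the control pool, on the brighter and a mean of -0.25 ± 0.06 (SD). Nusap1 differed by 0.14. Among the cytokinesis genes, Ect2, the exchange factor that activates RhoA at the cleavage furrow, had 229.2 in the double knockout pool, against 293.5 in the control pool, a difference of -0.36. Prc1, the bundler of the central spindle, had 314.3 in the double knockout pool, against 251.7 in the control pool, a difference of 0.32. Its other probe set, under the floor in both pools, went the other way, at 149.6 in the double knockout pool and 159.0 in the control pool. Racgap1, which binds Ect2 at the central spindle, differed by -0.12 on its brightest probe set but averaged 0.05 ± 0.24 (SD, 2 probe sets). Anln, anillin, a scaffold of actin and myosin in the contractile ring, differed by 0.13. The general proliferation markers differed by less than 1.3-fold. Mki67 had 288.3 in the double knockout pool and 305.9 in the control pool, and Top2a, topoisomerase II alpha, had 360.9 in the double knockout pool and 395.3 in the control pool, differences of -0.09 and -0.14.

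Agreement between probe sets set a limit on these directions. The SD between probe sets of a gene, pooled over 4858 genes, was 0.18 log2 and was 0.20 over the dimmest 1619 of them. Of the 16 division genes with at least 2 probe sets above the floor in both pools, 8 had all of them in 1 direction, against 43.1% of the 4858 genes. Of the 7 genes past 1.3-fold, Mcm2 and Pttg1 rested on more than 1 such probe set.

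Other genes of the same machinery, 164 in 9 lists, were spread evenly around 0. Of the 109 that reached the floor in both pools, 53 were lower and 56 higher in the double knockout pool. Their median was 0.0001, and past 1.3-fold 4 were lower and 2 higher, against 3.29% and 2.02% of all genes. Origin and fork proteins had a median of 0.03 over 25 genes. Orc1, the origin recognition subunit, had 235.5 in the double knockout pool, against 362.9 in the control pool, 1.54-fold lower. Rfc4, a subunit of the clamp loader, differed by -0.48, and Gins4, a subunit of the active helicase, was higher by 0.56. In the list of other inhibitors, phosphatases and regulators, with a median of 0.0001 over 11 genes, Cdkn1a, encoding p21, the inhibitor induced by p53, had 881.4 in the double knockout pool, against 509.2 in the control pool, 1.73-fold higher. Wee1, the kinase that holds Cdk1 inactive, had 287.5 in the double knockout pool, against 393.9 in the control pool, a difference of -0.46, and Cks1b, a Cdk subunit, averaged 0.22 ± 0.13 (SD, 2 probe sets).

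The E2F and retinoblastoma proteins had a median of -0.01 over 10 genes, with E2f4 at -0.22, E2f1 at -0.19 and Rb1 at 0.15, none past 1.3-fold. For nucleotide supply the median was -0.03 over 6 genes, with Cad at -0.19, Umps at 0.12 (mean over 2 probe sets -0.11 ± 0.32, SD) and Ctps at -0.05. Mitotic kinesins and spindle genes had a median of -0.08 with 5 of 7 lower, led by Kif22 at -0.23, Aspm, a spindle pole gene mutated in human microcephaly, at -0.19 and Ckap2l at -0.16. For further kinetochore and checkpoint genes it was -0.02 over 18, with Mis12 at -0.33, Pmf1 at 0.22 and Nsl1 at -0.21, all subunits of the MIS12 complex. In the condensin and cohesin list, with a median of 0.07 over 13 genes, Ncaph, a condensin I subunit, had 279.7 in the double knockout pool, against 393.6 in the control pool, a difference of -0.50. Ncapd2 of the same complex differed by -0.23 on its brightest probe set and by a mean of -0.05 ± 0.25 (SD) over 2, and the cohesin subunit Rad21 by 0.20, although its 3 probe sets averaged 0.02 ± 0.17 (SD). Subunits of the anaphase-promoting complex had a median of 0.04 over 14 genes, within -0.13 and 0.19, with Cdc16, Cdc23 and Anapc10 at 0.19, 0.16 and 0.14. Mitotic transcription factors and kinases had a median of 0.0001 over 5 genes, with Pbk at 0.24, Nek2 at 0.19 (mean over 2 probe sets 0.01 ± 0.25, SD) and Plk4 at -0.06.

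**Figure D5:**
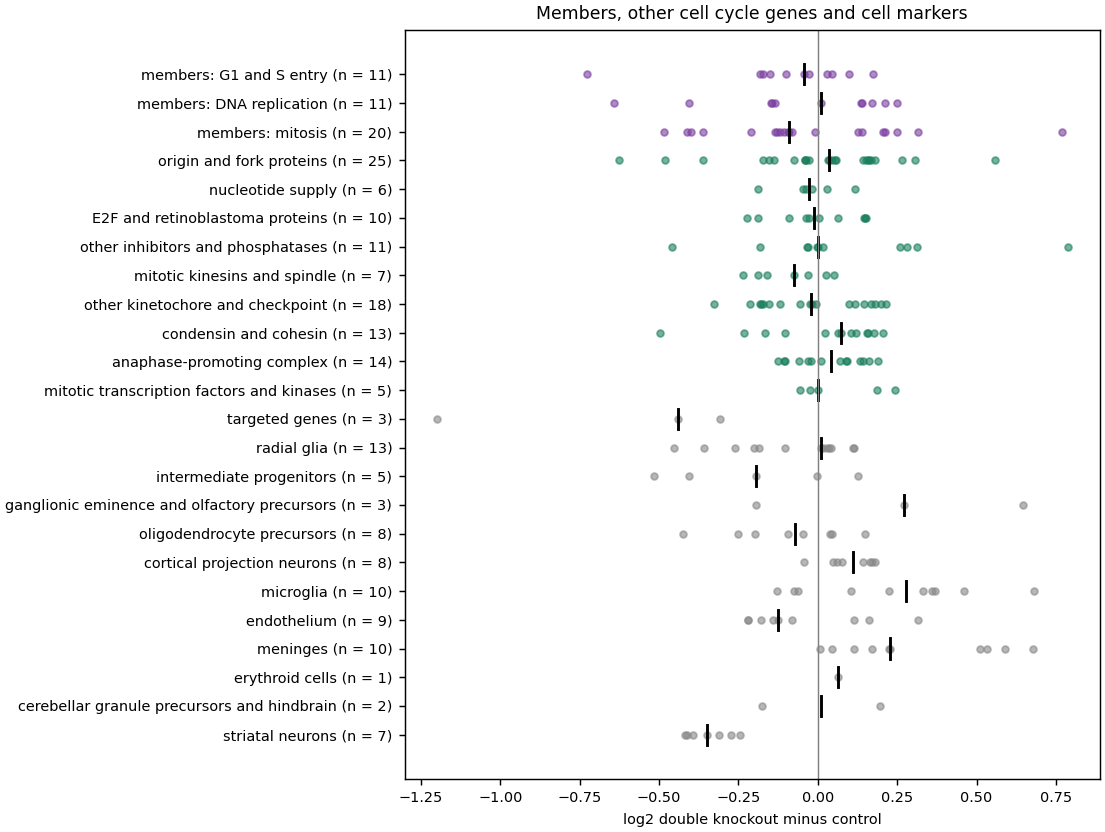
Log2 difference, double knockout minus control, of each gene that reached the floor in both pools (points) and the median of each list (black bars), for the division genes (purple), the other cell cycle genes (green) and the cell markers (grey). The cell cycle lists straddle 0, while the striatal markers lie below 0 and the meningeal markers above it.

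Markers of the cells that could be dividing in this tissue also differed between the pools in part, and their part in the values above was not tested. Sums of signals are over the markers that reached the floor in both pools. Beside the counts of lower and higher markers, 45.7% of all measured genes were lower. Radial glia, the ventricular progenitors, had a median of 0.01 over 13 markers, 6 lower and 7 higher, and that median was -0.10 without suffixed probe sets. The largest differences were those of Emx2 at -0.45, Id4 at -0.36 and Hes5 at -0.26, while Hes1 and Vim were each higher by 0.11, and the summed signal was 31075.3 in the double knockout pool and 31905.0 in the control pool. Of the intermediate progenitor markers, 5 of 9 reached the floor in both pools and 4 of these were lower, with a median of -0.20 that shrank to -0.07 when the floor was lowered to the 25th percentile and to -0.0014 with no floor. They included Sstr2 at -0.52, Insm1 at -0.41 and Btg2 at -0.20. Their summed signal was 7059.8 in the double knockout pool and 7251.1 in the control pool. The defining marker Eomes was near the floor, at 187.1 in the double knockout pool and 177.4 in the control pool, and Neurog2 was under it. Ganglionic eminence and olfactory precursors had a median of 0.27 over 3 of 9 markers, with Dlx1 at 0.64, Dlx2 at 0.27 and Dlx5 at -0.19, a median that turned to -0.18 with that lower floor and was 0.07 after quantile normalization. Oligodendrocyte precursors had a median of -0.07 over 8 markers, 5 lower and 3 higher, with Myt1 at -0.42, Sox10 at -0.25, Cspg4 at -0.20 (mean over 2 probe sets 0.0071 ± 0.29, SD) and Pdgfra at 0.15.

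Markers of non-neural cells were read in the same way, followed by those of cerebellum and hindbrain, of neurons, and the targeted genes. Microglia had a median of 0.28 over 10 of 11 markers, 7 of them higher, with Mrc1 at 0.68, C1qc at 0.46 and C1qb at 0.37. The 3 lower ones were Cx3cr1 at -0.13, Fcer1g at -0.08 and Aif1 at -0.06. Csf1r was at 0.11 on its brightest probe set but averaged -0.0012 ± 0.13 (SD, 3 probe sets). The summed signal of the microglial markers was 7424.9 in the double knockout pool, against 6391.1 in the control pool. Meningeal markers were higher in 10 of 10 cases with a median of 0.23, led by Aldh1a2, Igf2 and Islr at 0.68, 0.59 and 0.53, and their summed signal was 9989.7 in the double knockout pool, against 7797.0 in the control pool. Endothelial markers had a median of -0.12 over 9, with Tek at 0.31 and both Slco1a4 and Pecam1 at -0.22. Of the erythroid markers the only one above the floor, Tfrc, differed by 0.06, and the defining genes Alas2 and Slc4a1 were under it. Of the cerebellar and hindbrain markers Zic1 and Hoxa5 reached it, at -0.17 and 0.20, and the median of that list, 0.01, was -0.17 once the floor was lowered to the 25th percentile. The projection neuron markers had a median of 0.11 over 8, with Bcl11b at 0.18, Emx1 at 0.17 and Cux1 at 0.17 on their brightest probe sets, although the means over probe sets were -0.06 ± 0.26 (SD, 4 probe sets) for Bcl11b and -0.12 ± 0.23 (SD, 8 probe sets) for Cux1. Striatal neuron markers were lower in 7 of 7 cases with a median of -0.35, Drd2 at -0.42, Six3 at -0.41 and Penk at -0.39, and a summed signal of 6421.4 in the double knockout pool, against 8112.3 in the control pool. The targeted genes with Srf had a median of -0.44, Srf itself differing by -0.31.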

How the data were processed

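The authors deposited probe set intensity signals made with MAS5, per the submitters' processing notes, on a linear scale and with 1 array of pooled RNA per group. The sources used here do not give the MAS5 version or target, and the 2% trimmed mean was 500.002 on both arrays. Of 45101 probe sets, 34945 name 1 gene in the platform annotation. Signals were centred on the median log2 difference of probe sets bright on both arrays (a shift of 0.0037 log2), and those below the 50th percentile of non-control signals were set to that floor. Each gene was read from its brightest probe set. With 1 array per group no test was possible, so counts past 1.3-fold and 1.5-fold stand beside those of all genes. The SDs are between probe sets and hold no spread between animals. The number of arrays limits the precision.

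The named rule gives values for members past 1.3-fold, for those with opposed probe sets and for the carriers of a role, and up to 3 genes per list. The members, the lists and the folds were chosen with earlier results of these data known. Python 3.11.15 with numpy 2.4.6, pandas 2.3.3, statsmodels 0.14.6 and matplotlib 3.10.9 was used, and the code was checked on simulated data. The closing section gives the 9 alternatives.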

Additional observations from a re-analysis of the deposited data

How the results depend on the processing

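No paired analysis was possible because each group had 1 pooled array. The 9 alternatives changed scaling, floor, pseudocount, probe set summary or probe set choice. Of 81 recomputed medians and counts 64 stayed within 0.1 log2 or 1.5 times the reported value, and of the recomputed differences of single genes 325 stayed within 0.18 log2 and 6 did not, with no difference past 1.3-fold changing sign. The 6 were Mcm4 under 2 alternatives, Ccne1 at -0.45 without suffixed probe sets, and Cdkn1c, Cdt1 and Hmmr at -0.42, -0.36 and -0.22 with the pseudocount. The limit of 0.1 log2 is larger than the reported median of the division genes and of each role group. A median could therefore turn and still count as staying, as did that of replication, at -0.04 with the mean over probe sets. Small differences of single genes could likewise turn within 0.18 log2. Of the recomputed list medians 173 stayed within 0.1 log2 and 15 did not. Medians that turned or nearly vanished among these were ganglionic eminence (-0.20 to 0.46), cerebellum and hindbrain (-0.27 to 0.08), intermediate progenitors (-0.21 to -0.0014) and radial glia (-0.10 to 0.04). The floor at the 75th percentile left 8 division genes, of which 4 were lower. Their medians were 0.13 for replication, from Mcm7 and Pcna alone, and 0.26 for mitosis, from Tpx2 and Pttg1 alone. Of these 8, 0 were past 1.3-fold or 1.5-fold lower, where 1.31% of all genes above that floor were past 1.3-fold lower. Past 1.3-fold, 1 of 42 division genes was lower with the pseudocount, against 1.04% of all genes. Higher genes were 2 of 42 after quantile normalization (2.52% of all genes) and 2 of 48 with the floor at the 25th percentile (3.91%). With no floor 4 of 53 were higher (6.92% of all genes), and without suffixed probe sets 0 of 29 (2.26%). Past 1.5-fold, lower genes numbered 1 after quantile normalization, 1 after loess centring, 0 with the pseudocount and 1 without suffixed probe sets. Higher genes past 1.5-fold numbered 2 with the floor at the 25th percentile, 4 with no floor and 0 without suffixed probe sets. Shares of all genes past 1.5-fold were not computed under the alternatives, so these counts have no background beside them. Without suffixed probe sets 29 of the 42 division genes had a measured value, and Pttg1, Cdt1, Hmmr, Ect2 and Prc1 were among those without one. Mcm4 turned to -0.32 without suffixed probe sets and to -0.04 with the mean over probe sets. The median over all division genes ran from -0.09 to -0.02, and that of the mitosis genes was 0.0027 after quantile normalization. Causes of these changes were not tested. Signals near the floor limit what these arrays can show for Cdkn1c, Cdt1 and Hmmr.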

Other observations

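A probe set shared by Tyms and the pseudogene Tyms-ps entered no comparison and read 165.5 in the double knockout pool and 134.7 in the control pool, both under the floor. All 4 probe sets naming Tyms alone read lower in the double knockout pool than in the control pool, also under the floor.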
